A study of Mus musculus with 6 samples.

Results

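The BTB zinc finger genes encode transcription factors that join an amino-terminal BTB (POZ) domain to DNA-binding C2H2 zinc fingers. Members were taken by symbol, as every gene named *Zbtb* followed by a number plus *Patz1*, *Bcl6*, *Bcl6b*, *Hic1* and *Hic2*, which gave 46 of the 23420 gene symbols counted. Their RNA was measured in mouse E14 embryonic stem cells (ESCs, the E14TG2a line) of 2 genotypes, wild type (WT) and *Patz1* knockout (KO), with 3 libraries each. Both genotypes were grown with LIF and 2i, the inhibitors PD0325901 of MEK1/2 and CHIR99021 of GSK3. The KO was made by CRISPR/Cas9 from single clones, the series names 1 KO line, and which clone the libraries came from was not given in the sources used here, so that the KO and features of a clone cannot be told apart. The study calls the replicates biological and defines such replicates as separate differentiations, a definition that does not say whether undifferentiated ESCs came from separate cultures, so p-values measure only the spread between these libraries. The question asked of the family was whether the other members, called paralogs here, shifted when *Patz1* was disrupted.

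The BTB domain lets these proteins dimerize and recruit corepressors such as NCOR1, BCOR and the NuRD complex, and the zinc fingers choose the DNA site. Many members are known from lineage decisions of lymphocytes, such as BCL6 in germinal centre B cells, ZBTB7B (ThPOK) in CD4 T cells and ZBTB16 (PLZF) in innate-like T cells. PATZ1, also called MAZR, binds G-rich DNA, carries AT-hooks beside its zinc fingers, represses *Zbtb7b* in CD8 T cells, and is known in ESCs as a regulator of pluripotency genes.

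The guide that made the KO is shown because it fixes where *Patz1* was cut. The 20 bases of the guide lie on the plus strand at chr11:3290600-3290619 (GRCm38, the same build as mm10), within *Patz1* (chr11:3288874-3309083, plus strand), and capitals mark the start codon:
*Patz1* guide: aaggggcagcgaccATGgag
The PAM that follows is cgg. The expected cut lies between positions 3290616 and 3290617, directly after the start codon, with 3 coding bases before it. In the GENCODE annotation, 4 of the 6 coding transcripts of *Patz1* hold the site, and no transcript of another member holds these 20 bases. Counts per gene do not show the edit itself.

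Upstream sequence is shown for 3 members that the results turn on: *Zbtb7b*, a described PATZ1 target, *Zbtb32*, called lower in KO, and *Zbtb4*, the member with the highest log2 fold change. Each line gives the 250 bases before the first start of the gene in RefSeq (GRCm38.p6), 5′ to 3′ on the strand of the gene. Capitals mark the letters GGGAGGG, a G-rich run of the kind PATZ1 is known to bind, searched on both strands. The windows are chr3:89393379-89393628 (minus strand), chr7:30598910-30599159 (minus strand) and chr11:69765662-69765911 (plus strand):
*Zbtb7b*: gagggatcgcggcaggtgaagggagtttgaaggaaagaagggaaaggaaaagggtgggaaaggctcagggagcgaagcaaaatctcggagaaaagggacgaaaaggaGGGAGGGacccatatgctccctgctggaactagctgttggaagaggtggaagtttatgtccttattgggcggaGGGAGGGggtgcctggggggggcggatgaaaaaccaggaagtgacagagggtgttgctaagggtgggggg
*Zbtb32*: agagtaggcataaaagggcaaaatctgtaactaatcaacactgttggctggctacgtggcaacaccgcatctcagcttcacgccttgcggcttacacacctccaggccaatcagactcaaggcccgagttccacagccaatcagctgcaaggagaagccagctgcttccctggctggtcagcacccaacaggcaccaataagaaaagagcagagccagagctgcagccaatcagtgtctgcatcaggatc
*Zbtb4*: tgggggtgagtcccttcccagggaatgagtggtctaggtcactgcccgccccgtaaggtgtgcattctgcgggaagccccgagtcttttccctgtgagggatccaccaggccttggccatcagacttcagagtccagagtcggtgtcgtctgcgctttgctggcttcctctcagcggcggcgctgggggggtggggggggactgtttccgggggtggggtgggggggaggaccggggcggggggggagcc
The *Zbtb7b* stretch held 2 matches and the stretches of *Zbtb32* and *Zbtb4* held 0. Only these exact letters were counted, and other G-rich runs, such as those near the end of the *Zbtb4* stretch, were not. Promoter windows of 300 bases were found for 40 of the 46 members. The letters occurred in 24 of their 56 windows (42.9%) and in 22% of the 32851 windows of all genes. A match describes the letters and is not a measured binding site. Of the paralogs, 20 had a match in a window, with a median log2 fold change in KO of -0.0037, and 19 had none, with a median of 0.038.

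Depth and purity touched the family in the following way. Totals were 37573923 to 47721070 counts in the first pair of replicates of each genotype, but 11040756 (WT) and 11420268 (KO) in replicate 3, which also carried more ribosomal RNA, so values of low members in replicate 3 carry a larger counting error. ESC markers (*Pou5f1*, *Sox2*, *Nanog* and 7 others) summed to between 169774 and 178794 normalized counts in WT and between 191608 and 199361 in KO, and 1 of the 10, *Dppa5a*, was called higher. With the replicate number as a block, 4 of the 10 were called higher (*Dppa5a*, *Tdgf1*, *Zfp42* and *Pou5f1*). Of all tested genes, 2.7% were called higher without the block, and 14.6% were called in either direction with it. The 6 primitive endoderm markers summed to between 107 and 145 in WT and between 102 and 119 in KO. DESeq2 gave an adjusted p to 5 of the 6 and called 0, and edgeR called 0. The marker without an adjusted p, *Foxa2*, could not be called by DESeq2, and was the 1 at an unadjusted p under 0.05 (0.00086 by DESeq2). *Foxa2* was at 0 in every WT library and at 12.4, 4.15 and 5.29 in KO. The 7 fibroblast markers summed to between 271 and 316 in WT and between 338 and 402 in KO, with *Thy1* and *Twist1* called higher (edgeR called *Thy1* alone) and *Col3a1* and *Postn* at or under the floor of 3 counts. The log2 fold changes of *Col1a1*, *Col1a2* and *Pdgfrb* were -0.23, -0.90 and -0.16, and the median of the tested markers of this list was -0.16. The part of these shifts in the results on the family was not tested. In bulk RNA, fewer cells of a type and less RNA per cell cannot be told apart.

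All 46 members had counts in every WT and KO library. Levels between genes are given as RPKM (counts scaled to the exon length in kilobases and to the library total) in WT, mean ± SD over the 3 libraries. *Hic2*, the paralog of the tumour suppressor gene *Hic1*, had 11.7 ± 0.83 RPKM and *Patz1* had 11.6 ± 1.18. *Zbtb43* followed with 10.2 ± 0.59, *Zbtb44* with 9.58 ± 0.14 and *Zbtb12* with 9.22 ± 1.42. *Hic2* and *Patz1* differed by less than their SD. The 5 together gave 28.8% of the summed RPKM of the family.

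A level of at least 5 RPKM was reached by 15 members. Beside those 5, these were in falling order *Zbtb8a*, *Zbtb17* (MIZ1, a partner of MYC), *Zbtb8os*, *Zbtb6*, *Zbtb22*, *Zbtb9*, *Zbtb21*, *Zbtb11*, *Zbtb32* and *Zbtb45*. Another 21 lay between 1 and 5 RPKM, from *Zbtb14* at 4.71 ± 0.35 down to *Zbtb8b* at 1.15 ± 0.26, among them *Zbtb7b*, *Zbtb41*, *Zbtb48*, *Zbtb3*, *Zbtb26*, *Zbtb24*, *Zbtb25*, *Zbtb34*, *Zbtb39*, *Zbtb2*, *Zbtb1*, *Zbtb10*, *Zbtb40*, *Zbtb5*, *Zbtb7a*, *Zbtb33*, *Zbtb38*, *Zbtb18* and *Bcl6b*. The 10 under 1 RPKM were *Zbtb49*, *Zbtb37*, *Zbtb4*, *Zbtb7c*, *Zbtb46*, *Hic1*, *Bcl6*, *Zbtb16*, *Zbtb42* and *Zbtb20*, the last at 0.0187. Highest and lowest members were 624-fold apart. This figure is uncertain, since *Zbtb20* had an SD of 0.0091 RPKM and 3 counts in WT replicate 3. In this order, 34 of the 45 neighbouring pairs differed by less than the larger of their SDs. Read counts of *Zbtb6* and *Zbtb26* (449 bp of shared exon on 1 strand), of *Zbtb9* (2938 bp shared with *Ggnbp1*) and of *Zbtb37* (2942 bp opposite *Serpinc1*) could be split or lost in the counting, and their levels are uncertain.

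The family was detected at a level of at least 1 RPKM in 36 of 46 members (78.3%), against 56.5% of the 17320 detected protein-coding genes. Its median was 2.67 RPKM, against 1.74 for those genes. The members known from the germinal centre and innate-like T cells, *Bcl6* and *Zbtb16*, were among the lowest, at 0.397 ± 0.058 and 0.205 ± 0.09. The other members listed as lymphoid factors lay on both sides of the family median. They ranged from 11.6 RPKM for *Patz1*, 8.22 for *Zbtb17*, 5.75 for *Zbtb32* and 4.13 for *Zbtb7b* down to 1.90 for *Zbtb7a*, 1.35 for *Bcl6b* and 0.44 for *Zbtb46*. The order of the members in KO was close to that in WT, with a rank correlation of 0.982 over the 46 means, which share a gene length and are given as a description.

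**Figure D1:**
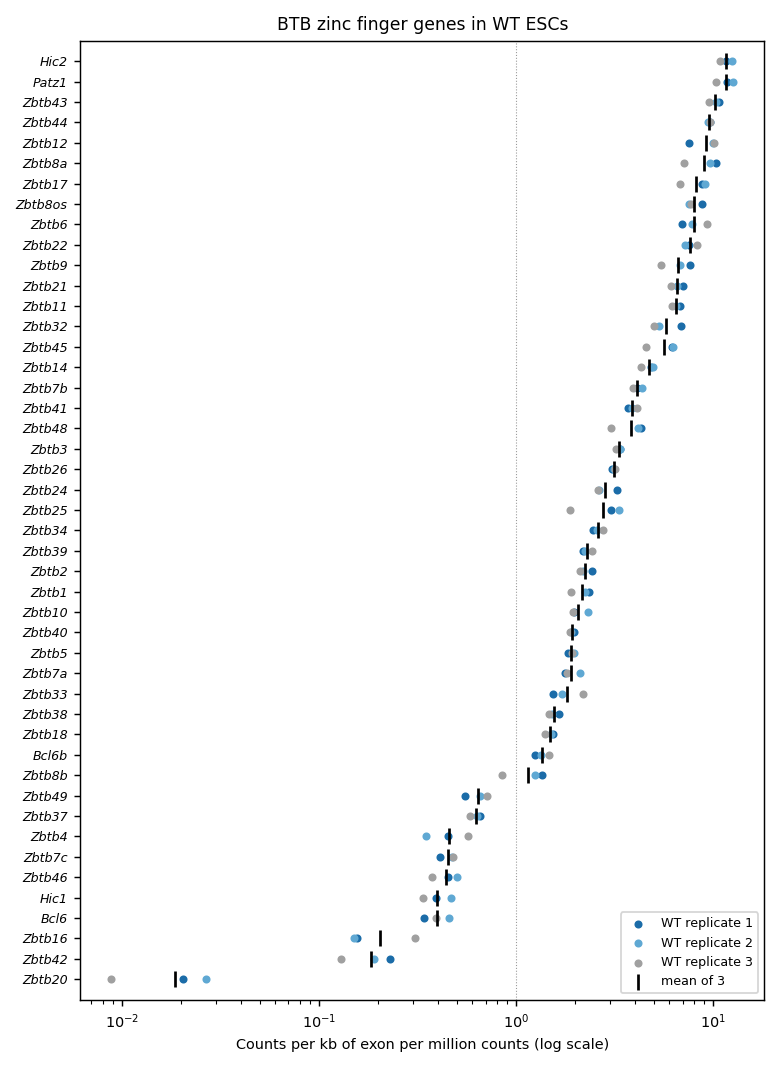
RPKM on a log axis for the 46 BTB zinc finger genes in the 3 WT libraries (points) with their mean (bar), ordered by mean. *Hic2*, *Patz1*, *Zbtb43*, *Zbtb44* and *Zbtb12* lead, and 36 members lie at or above the dotted line at 1.

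*Patz1* was the targeted gene and is given first. Normalized counts (counts divided by the DESeq2 size factor of the library) of *Patz1* were 1838, 1983 and 1843 in the WT libraries (replicates 1, 2 and 3) and 853, 862 and 862 in those of the KO. The genotypes did not overlap, and the KO mean was 45.5% of WT. On the log2 scale, KO over WT, this is a difference of -1.14 ± 0.10 (SE), with an adjusted p of 1.58e-26 by DESeq2. Within the family, *Patz1* went from rank 2 to rank 13 by RPKM, and from 6.39% to 3.04% of the summed RPKM. *Patz1* lies on chromosome 11, where the median log2 fold change of tested genes was -0.27. A fit that centred chromosome 11 and distal X per library (region centring) gave -0.87 (adjusted p 1.79e-13). *Patz1* was under the threshold in every setting tried.

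Of the 46 members, 3 were under the threshold of adjusted p 0.05, *Patz1*, *Zbtb46* and *Zbtb32*, all lower in KO and 0 higher. This is 6.52% of the members, against 7.49% of the 15309 genes tested (4.78% called lower and 2.7% called higher). Of the 45 paralogs, 2 (4.44%) were called. At an unadjusted p under 0.05, 4 members were lower and 3 higher, 15.2% of the members against 17.2% of all tested genes, and edgeR called 2 members (*Patz1* and *Zbtb46*), against 6.41% of genes. With the replicate number as a block, 7 members (15.2%) were called, against 14.6% of genes, adding *Zbtb4*, *Bcl6b* and *Zbtb8os* as higher and *Zbtb8a* as lower. The count rested on single libraries. It was 1 (*Patz1* alone) when the first or second WT library, or KO replicate 1 or 3, was left out, settings in which the share of all genes called was 3.81%, 4.29%, 3.84% and 6.5%. It was 2 without KO replicate 2 (3.8% of all genes). It was 5 without WT replicate 3 (8.8% of all genes).

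The paralogs as a whole lay near 0. Their median log2 fold change was 0.0065, against 0.0087 over all tested genes, and their median absolute log2 fold change was 0.11, against 0.16. By sign, 24 members were higher and 22 lower. The normalized counts of the 45 paralogs summed to between 24351 and 26091 in the WT libraries and between 24309 and 26020 in KO, and the KO sum was 99.8% of WT. The 95% interval of the log2 fold change lay within 1 of 0 for 40 paralogs and within 0.5 for 29. For 8 of the 45 paralogs (17.8%) the WT and KO ranges did not overlap, against 25.6% of all tested genes.

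**Figure D2:**
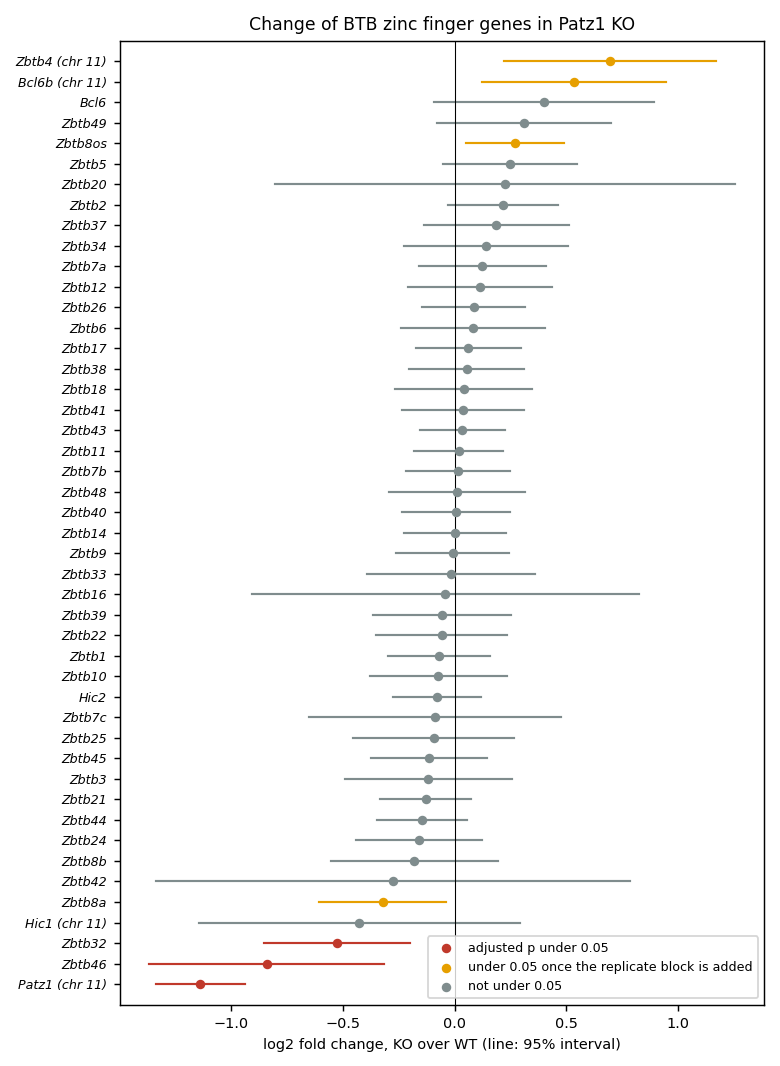
Log2 fold change, KO over WT, of the 46 members (points) with 95% intervals (lines), ordered by value and coloured by the DESeq2 call. *Patz1*, *Zbtb46* and *Zbtb32* lie lowest, *Zbtb4* and *Bcl6b* highest, and most of the rest cross 0.

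*Zbtb46* (chr2:181387762-181459426), a factor of classical dendritic cells and endothelium, was the lower of the called paralogs. Its normalized counts were 102, 113 and 95.8 in WT and 47.4, 72.4 and 52.9 in KO. Every KO library lay under every WT library. On the log2 scale KO differed from WT by -0.84 ± 0.27 (SE), with an adjusted p of 0.0281 by DESeq2. The call was lost without the first or second WT library (adjusted p 0.174 and 0.257), without KO replicate 1 or 3 (0.31 and 0.0685), and without replicate 3 of both genotypes (0.0651).

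*Zbtb32* (chr7:30589681-30598909), a repressor of activated T and NK cells, had 429, 334 and 359 normalized counts in WT and 280, 273 and 217 in KO. The genotypes did not overlap. On the log2 scale KO differed from WT by -0.53 ± 0.17 (SE), with an adjusted p of 0.0274 by DESeq2. It missed the threshold with edgeR (adjusted p 0.0563), with limma-voom (0.0501), without replicate 3 of both genotypes (0.0713), and without WT replicate 1 (0.36), WT replicate 2 (0.0506), KO replicate 1 (0.0982), KO replicate 2 (0.12) or KO replicate 3 (0.109). At these 3 libraries a genotype, the calls of *Zbtb46* and *Zbtb32* depended on which libraries entered.

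*Zbtb4* (chr11:69765912-69784023), which encodes a reader of methylated CpG, had 97.2, 74.9 and 139.6 normalized counts in WT and 140, 178 and 166 in KO. KO libraries lay above WT libraries, by a small margin between WT replicate 3 and KO replicate 1. On the log2 scale KO differed from WT by 0.70 ± 0.24 (SE), with an adjusted p of 0.0534 by DESeq2, just over the threshold. With the replicate block the adjusted p was 0.024, with limma-voom 0.0425, with the count filter 0.0459, without replicate 3 of both genotypes 0.012, and without WT replicate 3 0.00358. It was 0.0953 with edgeR, 0.325 without WT replicate 1, 0.451 without WT replicate 2, and 0.136, 0.41 and 0.131 without KO replicates 1, 2 and 3.

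*Bcl6b* (BAZF, chr11:70224128-70229798), the close homologue of *Bcl6*, had 122, 133 and 164 normalized counts in WT and 159, 220 and 222 in KO. WT replicate 3 lay above KO replicate 1. On the log2 scale KO differed from WT by 0.54 ± 0.21 (SE), with an adjusted p of 0.106 by DESeq2. The adjusted p was 0.0497 with the replicate block and 0.0452 without WT replicate 3. It was 0.125 with edgeR, 0.541 and 0.395 without WT replicates 1 and 2, and 0.0757, 0.562 and 0.271 without KO replicates 1, 2 and 3. *Bcl6* itself had 60.6, 81.2 and 79.4 in WT and 88.6, 100.2 and 100.4 in KO, a difference of 0.40 ± 0.25 (SE) on the log2 scale with an adjusted p of 0.458. The KO libraries of *Bcl6* lay above all WT libraries.

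*Zbtb4* and *Bcl6b* lie 440105 bp apart on chromosome 11, with other genes between them, and had positive values where most genes around them had negative ones. Of the 29 tested genes between them, 22 were lower in KO by sign, 5 were called, all 5 lower, and the median log2 fold change was -0.18. Over chromosome 11, 90.7% of 961 genes averaging at least 50 normalized counts were lower by sign, and 35 of 1260 tested genes had a log2 fold change as high as that of *Bcl6b* or higher. Under region centring *Zbtb4* was at 0.97 (adjusted p 0.00353) and *Bcl6b* at 0.80 (adjusted p 0.00765), and both were among 5 members called (10.9%), against 4.85% of genes. With the block as well, 7 members were called (15.2%), against 10.8% of genes. The fourth member on chromosome 11, *Hic1*, a growth-restraining repressor, had 38.9, 46.6 and 38.3 normalized counts in WT and 23.7, 35 and 37 in KO. All KO values were under those of WT. The difference was -0.43 ± 0.37 (SE, log2, adjusted p 0.667), and -0.15 under region centring.

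*Zbtb8a* and *Zbtb8os*, named here after their values were seen, form an opposed pair. They lie on opposite strands of chromosome 4 (chr4:129353628-129378116 and chr4:129335695-129354547), and their exons overlap by 264 bp. *Zbtb8os* entered by its symbol alone. It encodes archease, a cofactor of the tRNA ligase, with 167 residues and no match to the C2H2 spacing. *Zbtb8a* had 638, 591 and 501 normalized counts in WT and 503, 483 and 396 in KO, with KO replicate 1 just above WT replicate 3. Its log2 fold change was -0.32 (SE 0.14, adjusted p 0.195, and 0.0389 with the replicate block). *Zbtb8os* had 1041, 905 and 1051 in WT and 1233, 1181 and 1187 in KO, with no overlap. Its log2 fold change was 0.27 (SE 0.11, adjusted p 0.131, and 0.0179 with the block). The strand setting of the counting was not given in the sources used here, so reads from the overlapped stretch cannot be assigned with certainty.

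**Figure D3:**
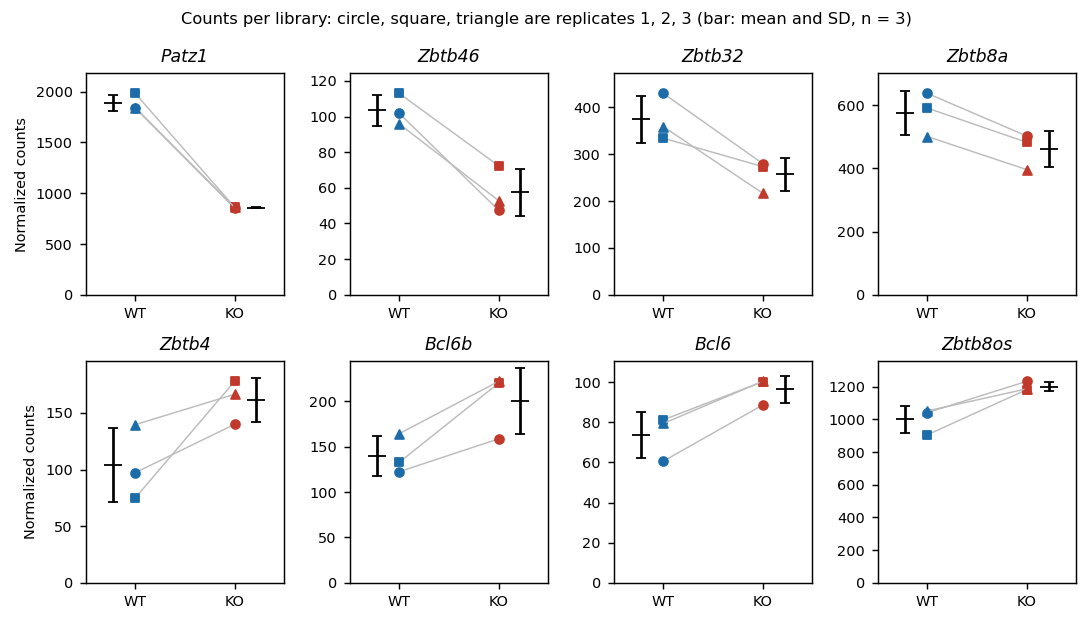
Normalized counts (counts divided by the size factor) of 8 members in each library, joined by replicate number, with mean and SD (n = 3) beside each genotype. *Patz1*, *Zbtb46* and *Zbtb32* are lower in each KO library than in each WT library, and *Zbtb4*, *Bcl6* and *Zbtb8os* higher.

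By role, 12 members were listed as lymphoid factors, among them *Zbtb46*, which is better known from dendritic cells and endothelium. Of these 12 genes, 3 (25%) were called, against 7.49% of all genes tested, and all 3 were lower. They were *Patz1*, which was the target of the KO, *Zbtb32* and *Zbtb46*. The list was chosen with earlier results of these data known, so its share is a description and not a test. With edgeR and with limma-voom 2 of the 12 were called (16.7%, against 6.41% and 7.94% of genes), and with the replicate block 4 (33.3%, against 14.6%), the fourth being *Bcl6b*, which was higher. Without *Patz1* the list had 2 of 11 called (18.2%), and 1 with edgeR or limma-voom (9.09%). It had 0 when WT replicate 1, WT replicate 2, KO replicate 1 or KO replicate 3 was left out (3.81%, 4.29%, 3.84% and 6.5% of all genes). The list also had 0 without replicate 3 of both genotypes (8.77% of all genes), and 1 (9.09%) without KO replicate 2 (3.8% of all genes). It had 3 of 11 (27.3%) without WT replicate 3, against 8.8% of all genes, and 3 of 11 with region centring, against 4.85%. The median of the list was -0.05. *Zbtb7b*, described in T cells as repressed by PATZ1, had 607, 644 and 665 normalized counts in WT and 610, 645 and 684 in KO. Its log2 fold change was 0.02 (95% interval -0.22 to 0.25, adjusted p 0.976), so the data leave room for a change within these bounds. *Zbtb17* was at 0.06 (95% interval -0.17 to 0.30).

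The other role groups, 16 genes in all, had 0 called by DESeq2 or edgeR, against 7.49% and 6.41% of all genes. They share *Zbtb7a*, *Zbtb7b* and *Zbtb16* with the lymphoid list. An unadjusted p under 0.05 was found for 1 of the 16 (6.25%), *Zbtb4*, against 17.2% of all genes, and *Zbtb4* was also the 1 called with the replicate block or region centring. The methyl-CpG readers were *Zbtb4*, *Zbtb33* (Kaiso) and *Zbtb38*, with a median of 0.05. *Zbtb33*, on X at 38189793 to 38197046, had 210, 233 and 340 normalized counts in WT and 243, 267 and 238 in KO, which is -0.02 ± 0.19 (SE) on the log2 scale, KO over WT, with an adjusted p of 0.984. The sign of this value turned in 6 settings. The LRF group (*Zbtb7a*, *Zbtb7b* and *Zbtb7c*) had a median of 0.02. *Hic2*, with *Patz1* at the top of the order by RPKM, had 1963, 2106 and 2081 in WT and 1856, 1884 and 2093 in KO, which is -0.08 on the log2 scale (95% interval -0.28 to 0.12, adjusted p 0.805).

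Among the 6 neural and developmental genes, which include *Zbtb18*, *Zbtb20* and *Zbtb45*, the median was -0.02, and *Zbtb45* was at -0.12 (SE 0.13, adjusted p 0.779). The telomere-binding members were *Zbtb48* (TZAP), at 0.01 ± 0.15 (SE) on the log2 scale with an adjusted p of 0.987, and *Zbtb10*, at -0.07. Of the other abundant members, the 95% interval was -0.16 to 0.23 for *Zbtb43* and -0.35 to 0.05 for *Zbtb44*, and *Zbtb12* was at 0.11 (SE 0.16, adjusted p 0.848). The 43 members not called had log2 fold changes between -0.43 (*Hic1*) and 0.70 (*Zbtb4*). Leaving out the 4 that were called when the replicate block was added (*Zbtb4*, *Bcl6b*, *Zbtb8a* and *Zbtb8os*), 39 remained, and the 35 of these that averaged at least 50 normalized counts lay between -0.18 and 0.40.

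**Figure D4:**
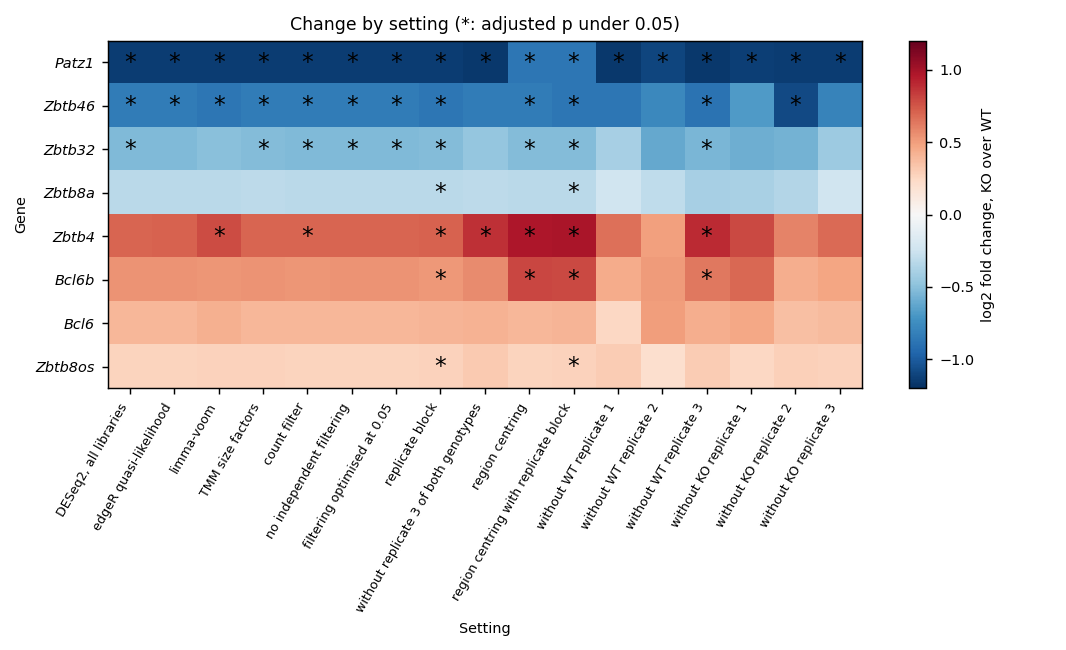
Log2 fold change of 8 members (colour, blue lower and red higher in KO) in each setting, with a star where the adjusted p was under 0.05. *Patz1* carries a star in every setting, *Zbtb46* and *Zbtb32* lose it in several, and *Zbtb4* and *Bcl6b* gain it with the block and with region centring.

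The protein similarity of the paralogs to PATZ1 is given as a description. Leaving out *Zbtb8os*, which held 0, the translated proteins held from 1 to 14 matches to the C2H2 spacing, a median of 4, and PATZ1 held 7 in 687 residues. The highest local alignment scores to PATZ1 belonged to *Zbtb17* (432), *Zbtb7b* (429), *Zbtb48* (409), *Zbtb49* (408) and *Bcl6b* (403). Over 44 paralogs, leaving out *Zbtb8os*, the score and the log2 fold change had a Pearson r of 0.23 and a Spearman rho of 0.20. These genes share libraries and are not independent replicates. The called paralogs *Zbtb46* and *Zbtb32* had scores of 210 and 176.

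**Figure D5:**
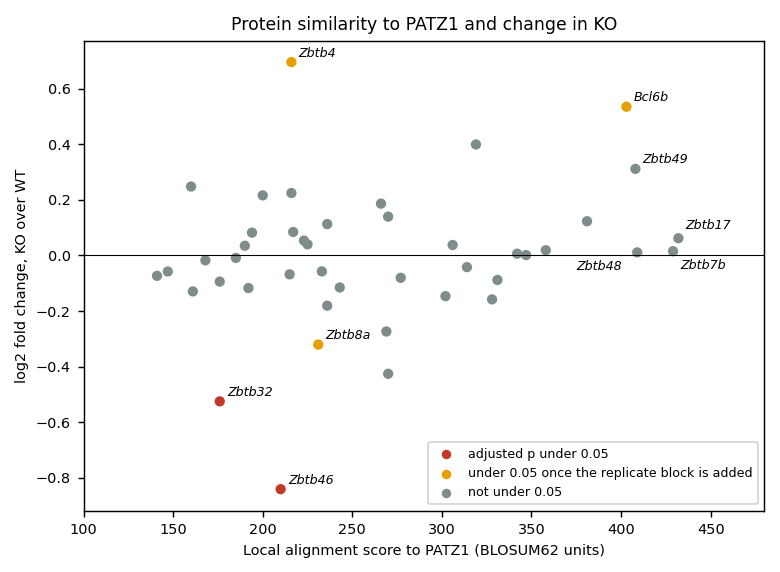
Log2 fold change, KO over WT, against the local alignment score to PATZ1 for 44 paralogs (points, coloured by the call). The 5 with the highest scores include *Zbtb7b* near 0 and *Bcl6b* above it, and *Zbtb46* and *Zbtb32* lie lower at modest scores.

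Partners of the family were compared from lists of corepressors and of PATZ1 partners and targets. Outside the members, 29 of 30 partner genes were tested, and 2 were called (6.9%), against 7.49% of all genes. With the replicate block 10 were called (34.5%), against 14.6%. *Chd4*, the NuRD remodeller, was higher, by 0.31 ± 0.10 (SE) on the log2 scale, adjusted p 0.0216 by DESeq2. Its call was lost with edgeR (adjusted p 0.0779) and without WT replicate 1 (0.141), WT replicate 2 (0.232), KO replicate 1 (0.171), KO replicate 2 (0.0504) or KO replicate 3 (0.1). The call held with limma-voom (0.0459), with the replicate block (3.83e-08), without replicate 3 of both genotypes (0.00264) and without WT replicate 3 (0.00324). *Ncor1*, the nuclear receptor corepressor, was lower, with -0.49 (SE 0.11, adjusted p 0.000659), and lies on chromosome 11, where region centring gave -0.22, with an adjusted p of 0.347 without the replicate block and 0.000689 with it. *Mta1*, another NuRD gene of the list, was at -0.31 (adjusted p 0.0665, and 0.0163 with the block), and edgeR called *Ncor1* and *Mta1*. *Nacc1*, the corepressor gene next after *Chd4* by RPKM in WT, was at 0.01 (adjusted p 0.986). Single libraries moved the count to 1 without WT replicate 1, WT replicate 2, or any KO replicate, and to 4 without WT replicate 3. The PATZ1 list had 0 called of 11 tested by DESeq2 and 0 by edgeR, with 3 at an unadjusted p under 0.05 (*Runx1*, *Fgf4* and *Trp53*) and 3 called with the block (*Pou5f1*, *Fgf4* and *Trp53*). *Runx1* had 19.4, 17.7 and 13.7 normalized counts in WT and 37.8, 29.7 and 42.3 in KO, which is 1.02 ± 0.42 (SE) on the log2 scale, KO over WT, with an adjusted p of 0.136. Its most abundant genes per length in WT were *Pou5f1*, at 0.14 (adjusted p 0.454, and 0.0405 with the block), and *Nanog*, at 0.01 (adjusted p 0.982). *Trp53*, on chromosome 11, was at -0.28 (adjusted p 0.243, and 0.000182 with the block) and at -0.0076 under region centring. Of BTB zinc fingers listed under other symbols, 3 were measured under those symbols, *Mynn*, *Gzf1* and *Zfp131*. Of these, 0 were called by DESeq2 or edgeR, with 1 at an unadjusted p under 0.05, *Gzf1* at -0.25 (unadjusted p 0.0439 by DESeq2).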

How the data were processed

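Total RNA, depleted of ribosomal RNA, was sequenced from stranded libraries (per the labels). The authors deposited raw counts per gene symbol, 1 file per library, with no normalization. The submitters' processing notes name TopHat2 2.1.1, Bowtie2 2.3.1.0, featureCounts 1.6.2, DESeq2 and mm10. The strand setting of the counting and its gene annotation were not given in the sources used here, so overlapping genes and near-identical copies are uncertain. Library totals ranged from 11040756 to 47721070.

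Here, R 4.3.3, DESeq2 1.42.0 (Wald test, two-sided, genotype only, Benjamini-Hochberg over all tested genes, threshold 0.05, independent filtering at 0.1), edgeR 4.0.16, limma 3.58.1, Python 3.11.15 and Biopython 1.88 were used. Lengths and positions came from GENCODE M21 (GRCm38), matched by symbol for 23037 of 23420 symbols. Similarity was a local alignment with BLOSUM62 (gap open 11, extension 1). The code was checked on simulated data. Alternatives were another tool (edgeR, limma-voom), TMM size factors, a filter of 10 counts in 3 libraries, other filtering settings, the replicate block, leaving out libraries, and centring chromosome 11 and distal X. Replicate numbers paired the libraries: once each gene was centred on the mean of its genotype, WT and KO replicates of one number correlated at 0.469, 0.619 and 0.684 over 11524 genes. These values, with the numbers in the titles, are the basis of the pairing. No 2 libraries agreed within sampling noise.

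The members and gene lists were chosen with earlier results of these data known. Genes named are *Patz1*, called members, the 5 highest in WT, the 3 highest and 3 lowest log2 fold changes among members with a mean of at least 50 normalized counts, those on chromosome 11 or X, the most abundant of each role group, and called or most abundant partners. Names given beyond these were chosen after values were seen. Intervals of log2 fold changes are 1.96 SE of DESeq2 on either side and include the spread between libraries. Floors (3 counts) cover counting error only.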

Additional observations from a re-analysis of the deposited data

How the results depend on the processing

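The replicate block gave 2131 genes called in all, 7 members and 10 partner genes. Region centring gave 796 genes in all (4.85% of those tested), 5 members and 1 partner gene, and with the block as well 1651 (10.8%), 7 and 8. Leaving out 1 library gave between 583 and 1341 genes in all, between 1 and 5 members, and between 1 and 4 partner genes. The median log2 fold change of the members was 0.013 with limma-voom and between -0.038 and 0.035 with 1 library left out. The median level in WT was 3.01 RPKM with the length of the longest transcript, 2.91 with *Rn45s* and *Lars2* left out of the total (chosen after seeing the data), and between 2.53 and 2.73 with 1 library left out. *Zbtb33* turned sign with limma-voom (0.10), the block (0.0098), the block with region centring (0.010) and without replicate 3 of both genotypes (0.21), and ranged from -0.16 to 0.18 with 1 library left out. *Zbtb48* turned with limma-voom (-0.055) and without replicate 3 of both genotypes (-0.14), and ranged from -0.066 to 0.077. *Zbtb12* ranged from -0.048 to 0.23 and *Zbtb7b* from -0.024 to 0.057. These 4 were under the threshold in no setting. The causes were not tested. The block changed no other call among the named members than those given. Replicate 3 of each genotype had the fewest counts.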
